A study of Mus musculus with 15 samples.

Results

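LSK cells carrying a HOXB4 vector were compared between 12 and 6 weeks after transplantation into mice. The comparison used the 3 arrays titled HOXB4+ LSK at 12 weeks and the 3 arrays titled HOXB4+ LSK at 6 weeks, chosen by title alone, which are 6 of the 15 arrays of the study. The donors of the marrow were female C57Bl/6 mice treated with 5-fluorouracil, per the series text. Their marrow was infected with retrovirus from GPE+86-derived producer cells, either MSCV-HOXB4-ires-YFP, which carries HOXB4 and a yellow fluorescent marker, or MSCV-ires-GFP, which carries a green marker alone. The infected marrow was given to lethally irradiated C57Bl/6 mice, and fluorescent LSK cells were sorted from their marrow at later times. There were 5 groups of 3 arrays: HOXB4 cells at 6, 12 and 20 weeks, and GFP cells at the later 2 times. The titles give 20 weeks where the series text gives 24, and the titles were followed. Every group shares the 5-fluorouracil, the infection and the transplantation. GFP cells at 6 weeks were not analysed here, so a change with time after transplantation and a change that needs HOXB4 cannot be told apart from these 6 arrays. Whether replicate arrays stand for separate mice, pools or repeats is not stated in the labels. The p-values therefore reflect array-to-array spread alone, which may be technical.

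LSK cells are the lineage-negative, Sca-1-positive, Kit-positive fraction of mouse marrow. The fraction holds long-term blood stem cells and the multipotent progenitors that feed the lymphoid, myeloid and megakaryocyte lineages. HOXB4 is a homeobox transcription factor, and its forced expression from a retrovirus is known to expand blood stem cells after transplantation. In the first weeks after a transplant, donor stem cells are known to divide often while they rebuild the marrow, and they return to a slower rate once blood counts have recovered. Lymphoid priming is the low-level expression of lymphoid genes, such as Dntt and Flt3, in multipotent progenitors before they commit. The vector's HOXB4 could not be checked here. The probe set for the mouse gene Hoxb4 read 6.64, 6.64 and 6.70 at 6 weeks and 6.55, 6.59 and 6.45 at 12 weeks (log2 signal), against a mean of 6.83 in GFP cells at 12 weeks.

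The sort was compared with the markers that define LSK cells. Kit, the stem cell factor receptor used in the sort, read 8.32, 8.08 and 8.22 at 6 weeks and 8.13, 7.94 and 8.14 at 12 weeks. Cd34, a surface protein of progenitors, read 9.10 to 9.19 at 6 weeks and 9.12 to 9.54 at 12 weeks. Sca-1 itself, encoded by Ly6a, had no named probe set and was not analysed here. The signals are log2 values after RMA, a method that corrects background, equalises the arrays and summarises probes. Without detection calls, a low value may be background, and the number of arrays limits the precision.

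The 6-week arrays varied more among themselves than the 12-week arrays. Over 17097 genes the median standard deviation (SD) of a gene was 0.203 at 6 weeks and 0.114 at 12 weeks. Replicates correlated (across genes, which are not independent) at 0.969 to 0.98 at 6 weeks and 0.992 to 0.995 at 12 weeks, while arrays of different times correlated at 0.973 to 0.988. The Gapdh 3' minus 5' control signal, which grows as RNA or its copies are shorter, was 3.76 on replicate 1 at 6 weeks. It was 1.68 and 1.71 on the other 6-week arrays, 0.93, 1.02 and 0.97 on the 12-week HOXB4 arrays, and 0.81 to 2.02 on the remaining 9. All 3 of the 6-week arrays thus lay above all 3 of the 12-week arrays in this control, and one stood far apart. The actin 3' minus 5' signal on that array was also the highest of the 15, at -0.32 against -1.02 to -0.54 on the others.

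**Figure D1:**
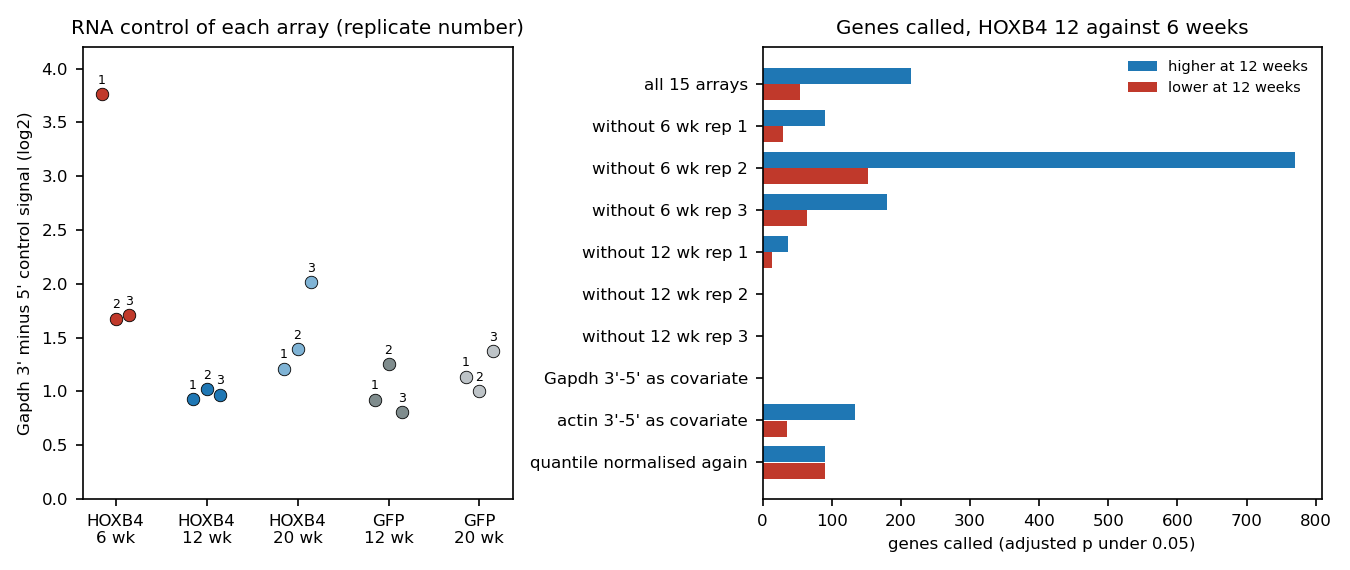
The left panel plots the Gapdh 3' minus 5' control signal (log2) of each array by group, with the replicate number beside each point; replicate 1 at 6 weeks stands at 3.76 and the 12-week HOXB4 arrays lie between 0.93 and 1.02. The right panel gives the number of genes called higher (blue) or lower (red) at 12 weeks, at an adjusted p under 0.05, with all arrays and under other settings; no gene was called without replicate 2 or without replicate 3 at 12 weeks.

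Between 6 and 12 weeks 214 genes rose and 54 fell in HOXB4 cells. These 268 are 1.57% of the genes tested in limma's linear model over the 15 arrays, with Benjamini-Hochberg adjustment and a threshold of 0.05 (1.25% higher and 0.316% lower). Of the genes that rose 51 differed by at least 2-fold, and of those that fell 15 did. The smallest adjusted p was 0.0113, and 2856 genes had an unadjusted p under 0.05, of which 1894 were higher at 12 weeks. The 12-week arrays lay wholly above the 6-week arrays for all 214 genes that rose, and wholly below for all 54 that fell; over all genes tested, 12.8% were separated upward and 8.36% downward. The median difference was 0.81 among the genes called higher, -0.73 among those called lower and 0.00963 over all genes (log2, 12 minus 6 weeks).

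The calls depended on the arrays and on the RNA control. Without replicate 1 at 6 weeks 91 genes were higher (0.532%) and 30 lower (0.175%), among them 69 of the 214 and 17 of the 54. With the Gapdh signal of each array as a covariate 1 gene was called, Hdc, and 2036 had an unadjusted p under 0.05. In these refits the medians were 0.71 and 0.59 for the genes called higher and -0.70 and -0.65 for those called lower. All 268 genes kept the sign of their difference with the covariate, while without an array the sign is fixed by the separation of the arrays. The median standard error over all genes grew from 0.152 to 0.198 with the covariate. Leaving out replicate 2 or replicate 3 at 12 weeks left 0 genes called by limma, with 2202 and 2059 at an unadjusted p under 0.05. That limit holds for every call named in the following paragraphs. Without replicate 1 at 12 weeks 37 genes were higher and 14 lower, 50 of them among the 268, and 23 of the genes named in the following paragraphs lost their call. Without replicate 2 at 6 weeks 770 were higher and 153 lower. A fit on only the 6 arrays compared kept 11 of the 268 calls. In that fit 35 of the genes named in the following paragraphs lost their call. A further quantile normalisation gave 91 higher and 90 lower, and centring each array on its median gave 120 higher and 60 lower, so the excess of rises over falls depends on the scaling. The median of all genes was -0.0216 and -0.0323 under these scalings.

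The 6-week mean was often at one end of the 5 groups, which the choice of genes by this difference favours. It was the lowest of the 5 groups for 182 of the 214 genes that rose and the highest for 43 of the 54 that fell (85.0% and 79.6%). Over all genes whose times were separated, called or not, the shares were 73.1% upward and 63.1% downward. For 112 of the 214 called genes that rose, the 3 arrays at 6 weeks lay below all 12 other arrays, those of the GFP vector included. For 24 of the 54 that fell, they lay above all 12. The same count over all genes is not given here, so nothing is read from these counts.

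Genes of lymphoid priming and of lymphocytes were among those that rose. Of 13 measured lymphoid priming genes 2 rose, Il12a and Mef2c, 0 fell, and 12 had a positive difference. Their median was 0.675, beside 0.00963 for all genes. Over all genes 1.25% were called higher, 0.316% were called lower, and 8822 of 17097 had a positive difference. Members of a list were measured on the same arrays, so such counts are not independent, here and for the lists below. Of 16 measured B cell genes 1 rose, Ighm, and of 15 T and NK cell genes 1 rose, Thy1. In bulk RNA, fewer cells of a type and less RNA per cell cannot be told apart.

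Ighm, the constant region of the IgM heavy chain, read 5.45, 5.46 and 5.11 at 6 weeks and 7.47, 7.27 and 8.71 at 12 weeks. The 6-week values were close together and at least 1 log2 unit under every 12-week value. The difference was 2.47 ± 0.39 (log2, standard error of the model; 5.55-fold, adjusted p = 0.0122), and it was 2.53 without replicate 1 at 6 weeks (adjusted p = 0.0284). Its mean was 8.09 in HOXB4 cells at 20 weeks, and 4.39 at 12 and 8.62 at 20 weeks in GFP cells.

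Ets1, a transcription factor of lymphocytes and their precursors, read 6.27, 6.99 and 6.26 at 6 weeks against 8.52, 7.86 and 8.21 at 12 weeks. It rose by 1.69 ± 0.32 (adjusted p = 0.0216) with no overlap between times. The call was lost without replicate 1 (1.57, adjusted p = 0.0608) or replicate 3 (1.56, adjusted p = 0.0501) at 6 weeks. The other probe sets of Ets1 were at 0.82, 1.15 and 1.79, none of them called. With the mean of its probe sets Ets1 was at 1.36 (adjusted p = 0.112). The 6-week mean of 6.51 lay near the GFP mean of 6.12 at 12 weeks, and the 12-week HOXB4 mean of 8.20 near the 20-week HOXB4 mean of 7.98.

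Il12a, the p35 subunit of interleukin 12 and a member of the lymphoid priming list, read 8.01, 8.42 and 8.40 at 6 weeks and 9.45, 9.32 and 9.16 at 12 weeks (1.03 ± 0.20, adjusted p = 0.0216). Mef2c, a transcription factor that favours lymphoid over myeloid fate in multipotent progenitors, read 9.77, 9.65 and 9.09 and then 10.13, 10.28 and 10.29 (0.73 ± 0.17, adjusted p = 0.0423). Both groups were separated for each gene, by a wider gap for Il12a. Without replicate 1 at 6 weeks the adjusted p of Il12a was 0.0627 and that of Mef2c 0.0383, and without replicate 3 at 6 weeks Mef2c gave 0.0773. With the mean of its probe sets Mef2c also missed the threshold (0.54, adjusted p = 0.0617).

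Cd96, a receptor of T and NK cells, rose by 1.47 ± 0.23 (adjusted p = 0.0122), from 5.84, 5.49 and 6.10 to 7.08, 7.48 and 7.27. Thy1, a surface protein of T cells and of a subset of stem cells, rose by 1.34 ± 0.31 (adjusted p = 0.0465), from 6.04, 5.75 and 5.33 to 6.48, 7.53 and 7.14. The gap between times was wide for Cd96 and under 0.5 for Thy1. Thy1 missed the threshold without replicate 1 (1.51, adjusted p = 0.059) or replicate 3 (1.16, adjusted p = 0.102) at 6 weeks. The T cell receptor gene Cd3e stayed at 3.82 to 4.23 on all 6 arrays.

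Several lymphoid priming genes were separated between times without a call. With the called ones included, 8 of the 13 measured members were separated upward and 0 downward. The shares over all genes were 12.8% and 8.36%. Dntt, the terminal transferase of early lymphoid cells, read 9.66, 10.36 and 9.53 at 6 weeks and 11.42, 11.44 and 11.50 at 12 weeks, a difference of 1.61 ± 0.41 (adjusted p = 0.0622). Flt3, the receptor that marks lymphoid-primed progenitors, read 8.59, 7.86 and 8.17 and then 8.82, 8.99 and 9.0 (adjusted p = 0.27). Satb1 and Notch1, regulators of lymphoid development, differed by 0.67 (adjusted p = 0.154) and 0.47 (adjusted p = 0.131). On the list's mean signal every 12-week array (8.87 to 8.96) lay above every 6-week array (7.95 to 8.40), and the list's median stayed between 0.523 and 1.18 under every setting tried.

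The value of the B cell list rested on a single array at 6 weeks. Its mean signal was 6.88 and 7.48 on replicates 1 and 2, 5.29 on replicate 3, and 7.41 to 7.85 at 12 weeks. Pax5, the factor that fixes B cell identity, read 8.78 and 9.81 on replicates 1 and 2 and 5.75 on replicate 3, against 9.07 to 9.81 at 12 weeks. Ebf1, which acts ahead of Pax5, read 7.72, 8.19 and 5.08, and the receptor subunit Cd79a read 8.25, 9.44 and 6.20, against 7.77 to 8.37 and 9.42 to 10.02 at 12 weeks. Replicate 2 was within or near the 12-week range for these 3 genes, replicate 1 was below it for each, and replicate 3 was the lowest. The median of the list was 1.26 with all arrays and 0.293 without replicate 3. Ighm did not follow this split, being low on all 3 arrays, and stayed called without replicate 3 (adjusted p = 0.0283).

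**Figure D2:**
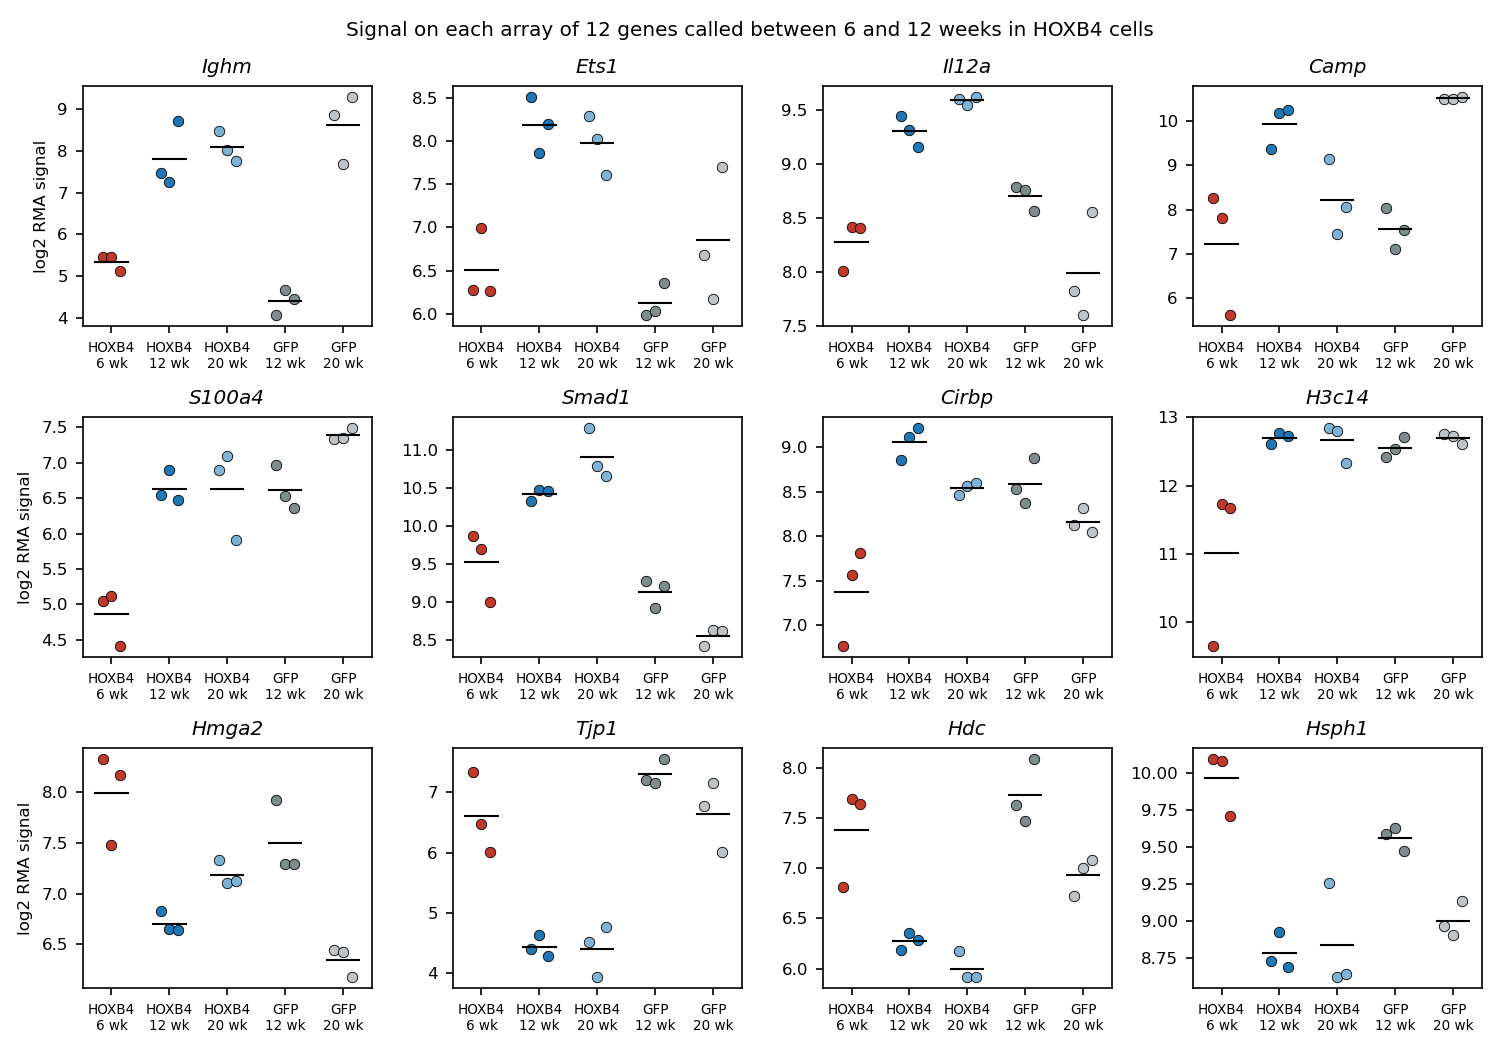
Log2 RMA signal on each array (points) and group mean (bars) for 12 genes called between 6 and 12 weeks in HOXB4 cells, with the HOXB4 and GFP groups side by side. The 3 red 6-week points and the 3 dark blue 12-week points do not overlap in any panel; on the H3c14 panel replicate 1 at 6 weeks stands apart at 9.65.

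Among myeloid genes a late granule gene rose, and granulocyte progenitor genes had no call. Of 17 late neutrophil granule genes 1 rose, Camp, 0 fell and 15 had a positive difference (median 0.423). The shares over all genes were 1.25% called higher and 0.316% called lower. Of 17 granulocyte progenitor genes 0 rose, 0 fell and 3 had a positive difference (median -0.362). Camp, the cathelicidin antimicrobial peptide of neutrophil granules, read 8.27, 7.81 and 5.61 at 6 weeks and 9.38, 10.18 and 10.25 at 12 weeks, a rise of 2.70 ± 0.55 (6.51-fold, adjusted p = 0.0274). Replicate 3 at 6 weeks was the low one, and Camp stayed called without it (adjusted p = 0.0377). Camp missed the threshold without replicate 1 at 12 weeks (2.98, adjusted p = 0.0611).

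Other granule genes showed the same low array without a call. S100a8, a subunit of the calprotectin of neutrophils, read 10.39, 9.64 and 5.44 at 6 weeks and 10.65, 11.29 and 11.15 at 12 weeks. Ngp, a neutrophil granule protein, read 8.71, 8.26 and 4.53 and then 9.57, 10.19 and 10.13 (adjusted p = 0.0918). Lcn2, an iron-scavenging protein of granules, read 6.39, 6.61 and 3.56 and then 7.71, 8.33 and 8.53 (adjusted p = 0.0516). The list's mean signal was 6.46, 6.34 and 5.12 at 6 weeks and 6.76 to 7.25 at 12 weeks, and its median was 0.662 without replicate 3 at 6 weeks. In HOXB4 cells at 20 weeks the mean was 5.97 to 6.70, and in GFP cells at 20 weeks it was 8.40 to 8.47.

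No granulocyte progenitor gene passed the test, and the mean signal of the list overlapped between times (8.53 to 9.27 at 6 weeks and 8.36 to 8.61 at 12 weeks). Ctsg, the cathepsin of primary granules, read 9.95, 10.89 and 10.29 at 6 weeks and 9.25, 9.50 and 9.67 at 12 weeks (adjusted p = 0.0858). Csf2rb, the shared receptor subunit for GM-CSF, interleukin 3 and interleukin 5, read 8.95, 9.36 and 9.67 and then 8.59, 8.44 and 8.55 (adjusted p = 0.0619). Cebpa, the factor that commits cells to the granulocyte and monocyte lineages, differed by -0.71 (adjusted p = 0.128). The times did not overlap for these 3 genes. Of the 17 members 6 were separated downward and 1 upward, beside 8.36% and 12.8% of all genes. The list's median of -0.362 was -0.179 without replicate 2 at 6 weeks, -0.562 without replicate 3 and -0.774 with the Gapdh covariate.

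Hdc, which makes histamine in mast cells, basophils and myeloid progenitors, fell. It read 6.81, 7.69 and 7.65 at 6 weeks and 6.18, 6.36 and 6.28 at 12 weeks, a difference of -1.11 ± 0.21 (adjusted p = 0.0216). Replicate 1, the array with the high Gapdh control, was the lowest of the 6-week arrays, so the difference was larger without it (-1.39, adjusted p = 0.0112) and with the covariate (-1.67, adjusted p = 0.0133). Both probe sets of Hdc were called when all probe sets were tested, at -1.11 and -1.06. The suffix of both marks possible cross-hybridisation. Without replicate 3 at 6 weeks Hdc narrowly missed the threshold (-0.98, adjusted p = 0.0537). Hdc was the single member called of 11 mast cell and basophil genes, of which 2 had a positive difference. The share of all genes called lower was 0.316%. The mast cell protease Cpa3 read 8.51, 9.56 and 9.68 and then 8.64, 8.98 and 8.66 (adjusted p = 0.516), with overlap between times.

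Markers of other lineages were given the same count, beside 1.57% called over all genes. Of 16 megakaryocyte and platelet genes 0 were called and 13 had a positive difference (median 0.389); Pf4, platelet factor 4, read 9.69, 9.64 and 10.34 at 6 weeks and 11.50, 11.30 and 11.38 at 12 weeks (adjusted p = 0.0857). Of 17 erythroid genes 0 were called (median 0.00978), and the mean of the list was 7.04 to 7.34 and then 7.27 to 7.5. Of 18 monocyte and macrophage genes 0 were called (median 0.247), of 12 dendritic cell genes 0, and of 6 eosinophil genes 0. The beta globin gene Hbb-b2 rose by 1.89 ± 0.40 (adjusted p = 0.032), from 6.47, 6.11 and 7.05 to 8.79, 8.33 and 8.18, and missed the threshold without replicate 1 at 6 weeks (1.85, adjusted p = 0.0733). Its other probe sets were at 0.56 and 0.06, neither called, and with the mean of the 3 it was at 0.84 (adjusted p = 0.271). The adult beta globin genes are near-identical copies, so which of them the signal came from is uncertain. The alpha globin gene Hba-a1 read 6.76, 6.33 and 6.54 and then 8.54, 7.72 and 7.76 (adjusted p = 0.42).

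A few genes of protein folding were called lower, as were 0.316% of all genes. Hsph1, the Hsp110 co-chaperone that helps Hsp70 release its clients, fell, as did the endoplasmic reticulum genes Hyou1, a chaperone of the Hsp70 family, and Creld2, a disulfide isomerase induced by unfolded proteins. Hsph1 was the single member called of 13 heat shock genes, of which 2 had a positive difference (median -0.236). Hyou1 and Creld2 were 2 of 23 unfolded protein response genes, of which 10 had a positive difference (median -0.0346).

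Hsph1 read 10.09, 10.08 and 9.71 at 6 weeks and 8.73, 8.92 and 8.69 at 12 weeks, a difference of -1.18 ± 0.16 (2.26-fold lower, adjusted p = 0.0113). The gap between times was wide and the difference was -1.11 both without replicate 1 at 6 weeks (adjusted p = 0.0284) and with the covariate (adjusted p = 0.108). Hyou1 read 10.16, 10.09 and 10.33 and then 9.44, 9.57 and 9.45 (-0.71 ± 0.12, adjusted p = 0.0172), and -0.47 with the mean of its probe sets (adjusted p = 0.196). Creld2 read 8.68, 8.64 and 8.12 and then 7.86, 7.78 and 7.81 (-0.66 ± 0.14, adjusted p = 0.0308), and missed the threshold without replicate 1 at 6 weeks (-0.57, adjusted p = 0.082). All 3 genes were separated between times, Creld2 by the narrowest gap. The endoplasmic reticulum chaperone Hspa5 lay lower on each 12-week array without a call (-0.39, adjusted p = 0.0995), as did the co-chaperone Dnaja1 (-0.47, adjusted p = 0.105). The heat shock list read 9.41 and 9.40 on replicates 1 and 2 and 8.85 on replicate 3 at 6 weeks, and 8.72 to 9.05 at 12 weeks, so its mean signal overlapped between times.

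The promoters of Hsph1 and Creld2 are shown because each holds a match to a motif named after its response. The 150 bases before the start of each gene are given, 5' to 3' on the gene's strand, from RefSeq on GRCm38.p6, at chr5:149636337-149636486 on the minus strand for Hsph1 and chr15:88819496-88819645 on the plus strand for Creld2. Capitals mark a match to the core of a heat shock element (TTCNNGAA) in Hsph1 and to the ER stress response element (CCAAT, any 9 bases, then CCACG, here on the opposite strand) in Creld2.
Hsph1: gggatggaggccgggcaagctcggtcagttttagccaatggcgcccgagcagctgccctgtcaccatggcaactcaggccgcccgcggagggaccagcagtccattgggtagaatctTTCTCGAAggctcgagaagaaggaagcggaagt
Creld2: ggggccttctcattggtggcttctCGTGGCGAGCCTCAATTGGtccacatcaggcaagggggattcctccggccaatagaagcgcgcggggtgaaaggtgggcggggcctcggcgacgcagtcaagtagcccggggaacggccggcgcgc
The match begins 33 bases before the start of Hsph1 and 126 bases before that of Creld2. Hsph1 had 2 promoter entries, and the most upstream start was used. On both strands of the 250 bases before each start, the heat shock core was found in 7.17% of 32851 promoters, or 8.11% of 27025 genes, and the ER stress element in 0.113%, or 0.13% of genes. Of the heat shock genes 11 were in the promoter table and 3 held the core (Dnajb4, Hspe1 and Hsph1). Of the unfolded protein response genes 20 were in the table and 8 held the ER stress element, among them Creld2 and Hspa5. Hyou1 was not in the table and so was not searched. A match is a description of the letters and not a site shown to be bound.

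Stem cell regulators were largely uncalled, as were most genes tested (1.57% of all genes were called). Of 23 stem cell transcription factors and Hox cofactors 1 fell, Hmga2, and of 27 LSK and long-term stem cell genes 0 were called (medians -0.0811 and 0.257). The first median was 0.111 without replicate 1 at 6 weeks, and the second 0.0343 without replicate 2. Hmga2, a chromatin protein that sustains self-renewal in fetal stem cells, read 8.33, 7.48 and 8.17 at 6 weeks and 6.83, 6.65 and 6.64 at 12 weeks. It fell by 1.29 on the log2 scale with no overlap (standard error 0.21, 2.44-fold, adjusted p = 0.0137), and by 1.12 without replicate 1 (adjusted p = 0.0346). With all probe sets tested 3 of its 4 were called, at -1.29, -1.20 and -1.84, and the remaining one was at -0.72 (adjusted p = 0.0567). Its mean was 7.19 in HOXB4 cells at 20 weeks, and 7.5 at 12 and 6.34 at 20 weeks in GFP cells.

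Hemgn, Meis1, Hoxa9, Prdm16 and Mecom, each known from work on HOXB4 or stem cells, did not pass with all arrays. Hemgn, a nuclear protein of stem and erythroid cells whose gene HOXB4 is known to activate, read 9.58, 8.98 and 8.47 at 6 weeks and 9.64, 9.57 and 9.52 at 12 weeks (0.57 ± 0.22, adjusted p = 0.196). Its difference was 0.30 without replicate 3 at 6 weeks (adjusted p = 0.489), 0.85 without replicate 1 (adjusted p = 0.0519) and 1.08 with the Gapdh covariate (adjusted p = 0.108), and it passed with the actin covariate (adjusted p = 0.0428). Meis1, the Hox cofactor, read 7.43, 7.60 and 8.71 and then 7.74, 6.81 and 7.34 (adjusted p = 0.365), a difference of -0.61 that was -0.22 without replicate 3 at 6 weeks. The other probe set of Meis1 was at 0.13, the opposite sign, and with the mean of its probe sets Meis1 was at -0.24 (adjusted p = 0.699). Hoxa9, another homeobox factor of progenitors, read 7.89, 8.01 and 7.78 and then 8.28, 8.49 and 8.46 (0.52, adjusted p = 0.151). The times were separated for Hoxa9 and, narrowly, for Prdm16, a factor needed by stem cells, which read 6.01 to 6.29 and then 5.64 to 5.89 (adjusted p = 0.394). Mecom stayed at 4.07 to 4.24 on all 6 arrays. Slamf1, a marker of long-term stem cells, read 6.84, 6.75 and 6.36 and then 7.55, 7.09 and 7.22 (adjusted p = 0.587).

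Among cell cycle genes a single mitotic kinase rose. Plk1, which drives entry into mitosis, read 6.52, 7.30 and 6.57 at 6 weeks and 7.84, 7.76 and 7.63 at 12 weeks (0.94 ± 0.22, adjusted p = 0.0445). It lost the call without replicate 1 (0.80, adjusted p = 0.116) or replicate 3 (0.83, adjusted p = 0.0943) at 6 weeks. It was the single member called of 23 mitosis genes, of which 21 had a positive difference (median 0.33). The share of all genes called higher was 1.25%. Cdk1, the mitotic kinase, read 7.93, 8.45 and 7.96 and then 8.79, 8.75 and 8.69 without a call (adjusted p = 0.0619). The mean of the mitosis list was 7.98 on replicate 3 at 6 weeks, 8.51 and 8.68 on the other 6-week arrays and 8.70 to 8.89 at 12 weeks. Of 28 DNA replication genes 0 were called (median 0.0329), and of 20 CDK inhibitor and G1 genes 0 were called (median 0.28). The CDK inhibitor Cdkn1a read 5.49, 6.41 and 6.30 and then 7.18, 7.09 and 7.14 (adjusted p = 0.0666).

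Both members called in the TGF-beta and BMP list rose, of 27 measured, beside 1.25% of all genes called higher. Smad7, which inhibits TGF-beta receptors, read 6.26, 6.10 and 6.19 at 6 weeks and 6.74, 6.84 and 7.0 at 12 weeks (0.67 ± 0.13, adjusted p = 0.0216). Smad1, which carries BMP signals to the nucleus, read 9.87, 9.69 and 9.0 and then 10.33, 10.48 and 10.46 (0.90 ± 0.20, adjusted p = 0.0426). The times were separated for both genes. Smad1 missed the threshold without replicate 3 at 6 weeks (0.64, adjusted p = 0.0783), while Smad7 gave 0.71 without replicate 1 (adjusted p = 0.0438). The median of the list was 0.0667. The ligand Tgfb1 differed by 0.62 without a call (adjusted p = 0.0701).

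Metabolic genes were called in both directions. Of 22 glycolysis and hypoxia genes 1 rose, Ddit4, and 1 fell, Hk2, beside 1.25% and 0.316% of all genes. Ddit4, an inhibitor of mTORC1 induced by hypoxia and glucocorticoids, read 6.53, 7.15 and 6.04 at 6 weeks and 7.70, 7.97 and 8.22 at 12 weeks (1.39 ± 0.23, adjusted p = 0.0163). Hk2, the hexokinase that starts glycolysis, read 8.57, 8.22 and 8.20 and then 7.40, 7.70 and 7.69 (-0.73 ± 0.14, adjusted p = 0.0216). Both genes were separated between times, and Hk2 missed the threshold without replicate 1 at 6 weeks (-0.61, adjusted p = 0.0605). Sdhc, a subunit of succinate dehydrogenase, was the single member called of 26 oxidative phosphorylation genes (0.81 ± 0.19, adjusted p = 0.0448), of which 21 had a positive difference (median 0.195). Sdhc read 6.91, 7.55 and 7.02 and then 7.94, 7.89 and 8.08, and missed the threshold without replicate 1 (0.69, adjusted p = 0.116) or replicate 3 (0.74, adjusted p = 0.0896) at 6 weeks.

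The largest rise was that of AA467197, a gene for a small mitochondrial protein, from 5.05, 4.26 and 4.26 to 7.05, 8.04 and 7.56. It rose by 3.03 ± 0.55 (8.15-fold, adjusted p = 0.0216). Myl10, a myosin regulatory light chain, read 6.65, 6.19 and 6.14 at 6 weeks and 8.20, 8.37 and 8.09 at 12 weeks (1.89 ± 0.28, adjusted p = 0.012). S100a4, a calcium-binding protein of motile cells, read 5.06, 5.12 and 4.41 and then 6.54, 6.89 and 6.47 (1.77 ± 0.27, adjusted p = 0.0122). Each of these 3 genes was separated by over 1 log2 unit. Each stayed called without replicate 1 at 6 weeks, and their differences with the Gapdh covariate were 3.46, 2.10 and 1.75.

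Mgst2, a membrane enzyme that conjugates glutathione, rose by 1.5 ± 0.23 (adjusted p = 0.0122), and Nrgn, a calmodulin-binding protein, by 1.72 ± 0.32 (adjusted p = 0.0216). Nrgn missed the threshold without replicate 1 at 6 weeks (1.52, adjusted p = 0.0603). Cmah, which makes the sialic acid that humans lack, rose by 1.52 ± 0.33 (adjusted p = 0.0395) and missed the threshold without replicate 2 (1.26, adjusted p = 0.0551) or replicate 3 (1.53, adjusted p = 0.0653) at 6 weeks, and with the mean of its probe sets (0.87, adjusted p = 0.153). Cirbp, the cold-inducible RNA-binding protein, read 6.76, 7.56 and 7.81 and then 8.86, 9.11 and 9.22 (1.69 ± 0.21, adjusted p = 0.0113). Its lowest 6-week array was again replicate 1, and its difference was 1.38 without that array (adjusted p = 0.0112) and 1.12 with the covariate (adjusted p = 0.0944).

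In 3 of the 15 largest rises the difference fell to under 0.5 of its value with the Gapdh covariate, and replicate 1 was the lowest 6-week array in each. H3c14, a histone H3 gene, read 9.65 on that array, 11.73 and 11.68 on the other 6-week arrays and 12.60, 12.77 and 12.73 at 12 weeks. Its difference was 1.68 ± 0.38 (adjusted p = 0.0431) with all arrays, 1.0 without that one (adjusted p = 0.0284) and 0.39 with the Gapdh covariate (adjusted p = 0.398). Crip1, a small LIM protein, read 8.51, 10.56 and 9.48 and then 11.11, 11.21 and 11.20, with differences of 1.66, 1.15 (adjusted p = 0.0874) and 0.70 in the same order, and it also missed the threshold without replicate 3 at 6 weeks (1.64, adjusted p = 0.0726). Phospho2, a phosphatase, read 6.12, 7.72 and 8.41 and then 9.04, 9.09 and 9.03, with 1.64, 0.99 (adjusted p = 0.0284) and 0.49. The other probe set of H3c14 was at 0.30, and those of Phospho2 at 0.29 and 0.34, none of them called. The part of RNA length in these differences was not tested beyond these refits.

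The largest fall was that of Tjp1, which encodes the tight junction scaffold ZO-1 and belongs to the endothelial and stromal list. It read 7.34, 6.47 and 6.01 at 6 weeks and 4.39, 4.64 and 4.28 at 12 weeks. The difference was -2.17 ± 0.32 (4.51-fold lower, adjusted p = 0.012), and it was -1.80 without replicate 1 (adjusted p = 0.0284). Tjp1 had a mean of 4.40 in HOXB4 cells at 20 weeks, and of 7.30 and 6.65 in GFP cells at 12 and 20 weeks. The 6-week HOXB4 level of 6.61 was thus on the side of the GFP cells and the 12-week level on that of the later HOXB4 cells. It was the single member called of 14 endothelial and stromal genes, of which 4 had a positive difference. The share of all genes called lower was 0.316%.

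Lrrc4, a synaptic adhesion protein, read 7.90, 8.03 and 8.05 at 6 weeks and 6.82, 6.23 and 6.24 at 12 weeks (-1.57 ± 0.21, adjusted p = 0.0113). Kcnq5, a potassium channel, read 7.59, 8.40 and 7.89 and then 6.96, 5.77 and 6.52 (-1.54 ± 0.30, adjusted p = 0.0235). Cers6, a ceramide synthase, read 7.19, 7.10 and 6.72 and then 5.94, 5.86 and 5.88 (-1.11 ± 0.16, adjusted p = 0.012). The times were separated for each, and each stayed called without replicate 1 at 6 weeks. The other probe set of Lrrc4 was at 0.07 (adjusted p = 0.932) and those of Kcnq5 at -0.28 and 0.05, and with the probe sets averaged the differences were -0.75 (adjusted p = 0.048) and -0.59 (adjusted p = 0.0679). Kcnq1ot1, an imprinted long noncoding RNA, fell by 1.11 (adjusted p = 0.0236), and 5 of its 6 probe sets were called when all were tested. Without replicate 3 at 6 weeks Kcnq1ot1 missed the threshold (-1.04, adjusted p = 0.0567).

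Nr2c2, an orphan nuclear receptor, read 8.29, 8.09 and 8.12 and then 7.38, 6.95 and 7.04 (-1.04 ± 0.14, adjusted p = 0.0113), and its probe sets averaged gave -0.63 (adjusted p = 0.015). Angpt2, a ligand of the Tie2 receptor, read 6.49, 7.03 and 7.21 and then 6.17, 5.72 and 5.74 (-1.03 ± 0.21, adjusted p = 0.0257). Angpt2 gave -1.52 with the Gapdh covariate (adjusted p = 0.0552), and -0.88 without replicate 3 at 6 weeks (adjusted p = 0.0625). Rad54l, of homologous recombination, fell by 1.06 (adjusted p = 0.0216) and Scfd2 by 1.08 (adjusted p = 0.0216). Without replicate 1 at 6 weeks they missed the threshold, at adjusted p = 0.0635 and 0.0621, and without replicate 3 Scfd2 gave 0.0501.

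Ppargc1b, a coactivator of mitochondrial genes, fell by 0.96 (adjusted p = 0.032), Tmem245 by 0.86 (adjusted p = 0.0472) and Ctu2, which thiolates transfer RNAs, by 0.79 (adjusted p = 0.0395). None of these 3 stayed called without replicate 1 (adjusted p = 0.082, 0.113 and 0.0995) or without replicate 3 at 6 weeks (0.0604, 0.0874 and 0.0718). The suffix of the tested Ctu2 probe set marks possible cross-hybridisation, and its other probe set was at 0.35 (adjusted p = 0.398), the opposite sign.

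**Figure D3:**
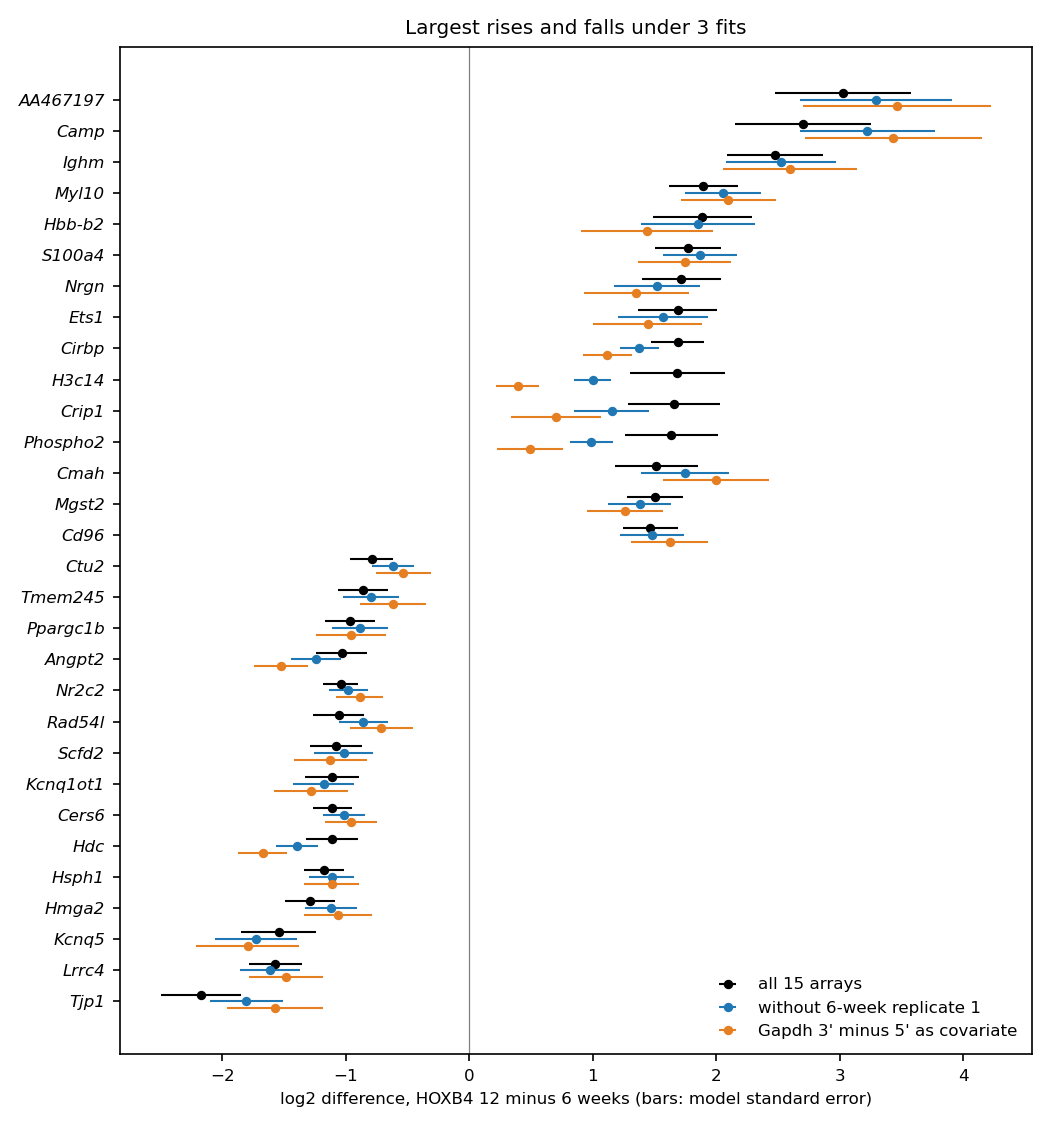
Log2 difference (12 minus 6 weeks, points) and standard error of the model (bars) of the 15 largest rises and 15 largest falls, with all 15 arrays (black), without replicate 1 at 6 weeks (blue) and with the Gapdh 3' minus 5' signal as a covariate (orange). No gene changes sign; H3c14 moves from 1.68 to 1.0 and 0.39, while Hdc moves from -1.11 to -1.39 and -1.67.

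Of the 15 largest rises 11 stayed called without replicate 1 at 6 weeks, and of the 15 largest falls 10 did. With the covariate 9 of the rises and 10 of the falls were smaller, and 3 rises and 0 falls dropped to under 0.5 of their value. Of the 30 genes 13 had another probe set, of which 3 genes had one called the same way and 0 one called the opposite way.

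The 33 gene lists held 17 called members among 626 entries, or 2.72%, beside 1.57% of all genes; the lists were chosen with earlier results known, so nothing is read from this. No member was called in 20 lists, and the median difference was above 0 in 23. Replicate 3 at 6 weeks also stood apart in the immediate-early and AP-1 list, genes that switch on within minutes of stimulation. Its mean was 7.56 on that array, 6.11 and 6.46 on the other 6-week arrays and 6.66 to 6.86 at 12 weeks, and 0 of 23 members were called. The median of this list was 0.0287 with all arrays, -0.331 without replicate 1 and 0.494 without replicate 3 at 6 weeks. The array low in B cell and neutrophil genes was thus the one high in immediate-early genes; what part this had in the calls was not tested beyond the refits without it. Without that array 180 genes were higher and 65 lower. Other list medians also moved by over 1.5 times without 1 array: the mitosis median was 0.194 without replicate 3 at 6 weeks, that of oxidative phosphorylation 0.0835, that of DNA replication -0.0752 and that of erythroid genes -0.0739. The heat shock median was -0.13 without replicate 1 at 6 weeks, that of TGF-beta and BMP signalling 0.202, and that of T and NK cells 0.191. The unfolded protein response median was 0.0407 and that of monocytes 0.442 without replicate 2 at 6 weeks, and the late neutrophil median was 0.751 without replicate 1 at 12 weeks.

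**Figure D4:**
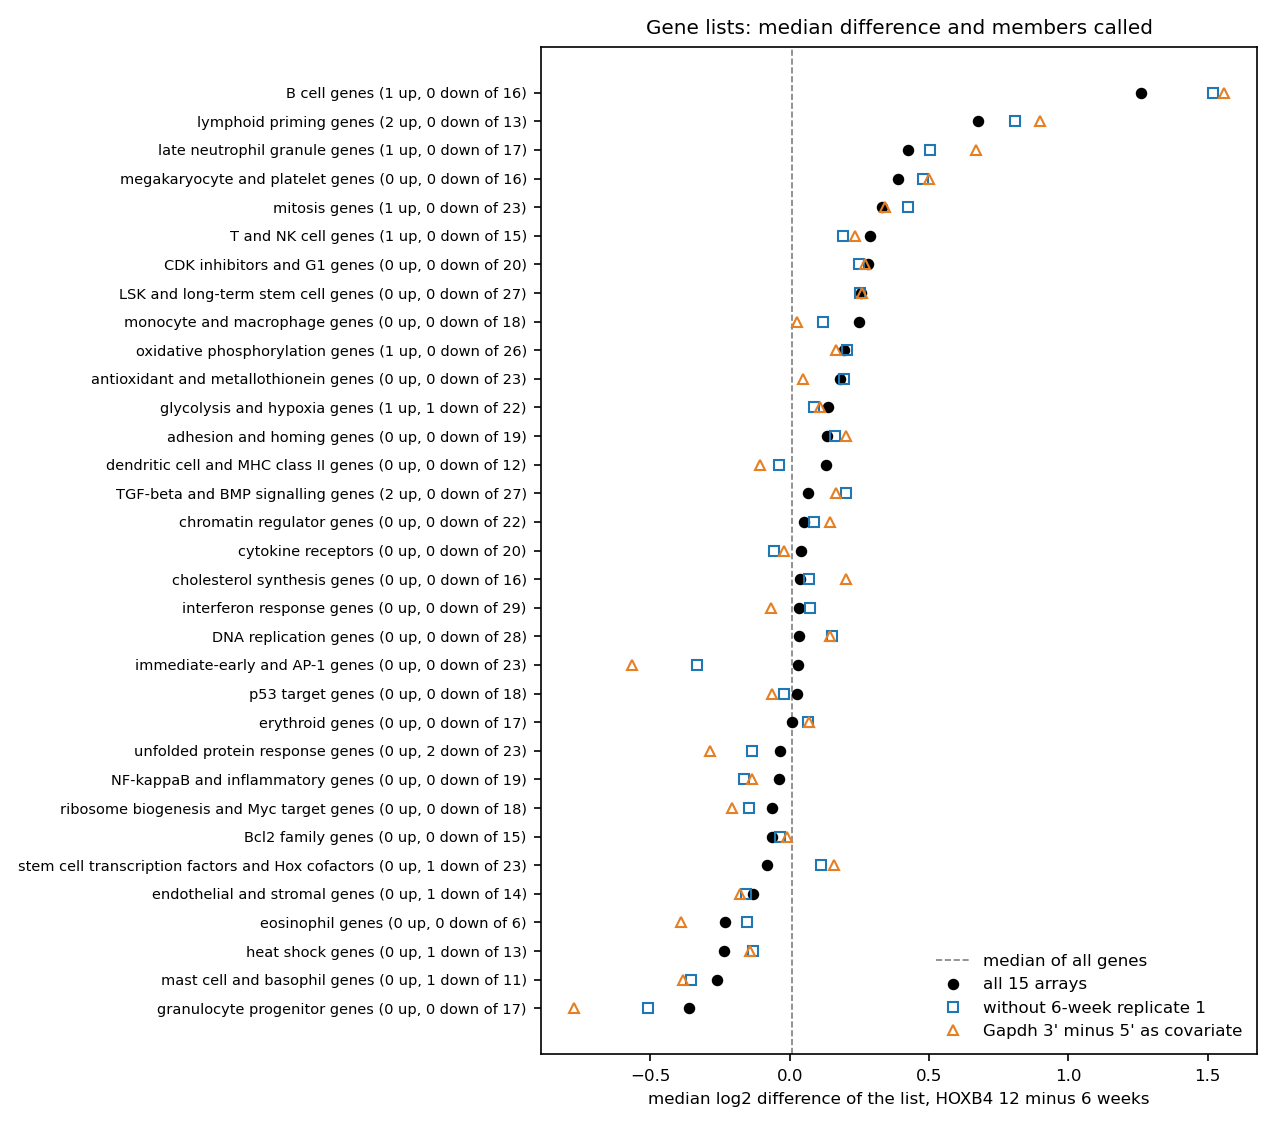
Median log2 difference (12 minus 6 weeks) of each gene list with all 15 arrays (black), without replicate 1 at 6 weeks (blue squares) and with the Gapdh covariate (orange triangles), beside the median of all genes (dashed line); labels give the members called up and down of those measured. B cell genes have the highest median, 1.26, with 1 of 16 called, and granulocyte progenitor genes the lowest, -0.362, with 0 of 17.

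**Figure D5:**
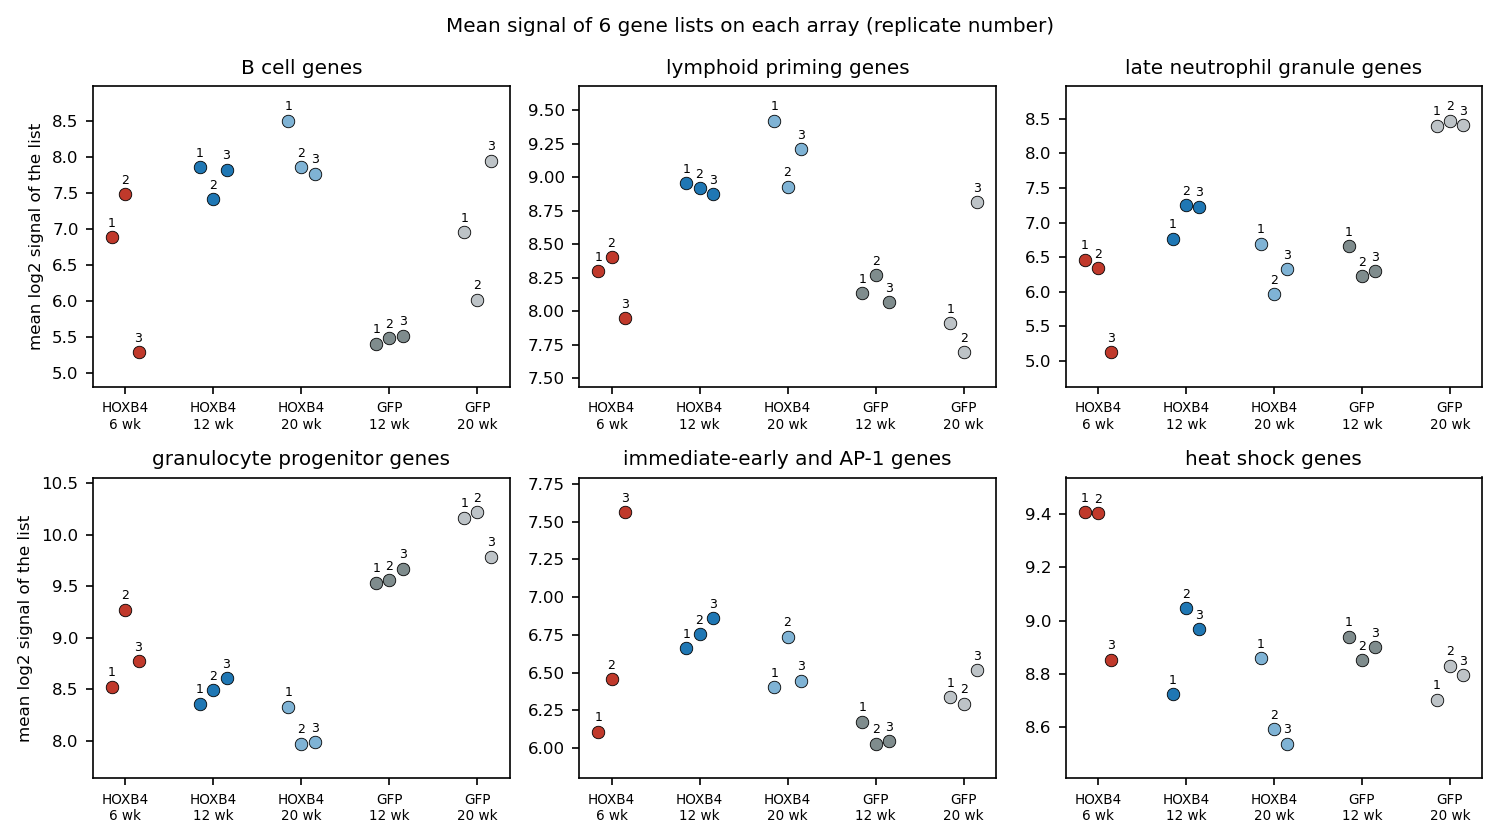
Mean log2 signal of 6 gene lists on each array, by group, with the replicate number beside each point. On replicate 3 at 6 weeks the B cell mean is 5.29 and the late neutrophil mean 5.12, both the lowest of the 15 arrays, and the immediate-early mean of 7.56 is the highest; lymphoid priming genes separate all 6-week arrays (7.95 to 8.40) from all 12-week HOXB4 arrays (8.87 to 8.96).

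The later HOXB4 arrays show where these levels went. The comparison of 20 with 12 weeks shares the 12-week arrays with the one described here, so values are given side by side. The genes were chosen on those arrays, which favours a return toward the 6-week level. The share of all genes called between 12 and 20 weeks is not given here. Of the 30 genes with the largest changes, Lrrc4 and Tmem245 rose between 12 and 20 weeks, by 1.22 (adjusted p = 0.0382) and 1.28 (adjusted p = 0.0253), after falling by 1.57 and 0.86. Lrrc4 had means of 8.0, 6.43 and 7.64 at 6, 12 and 20 weeks, and Tmem245 of 8.01, 7.15 and 8.43. Camp differed by -1.72 between 12 and 20 weeks (adjusted p = 0.235), with means of 7.23, 9.94 and 8.22. The difference of S100a4 between 12 and 20 weeks was -0.00036, and that of Tjp1 -0.03.

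HOXB4 and GFP cells at 12 weeks were compared in the same model, again sharing the 12-week HOXB4 arrays. The choice of genes on those arrays favours a difference in the same direction, and the share of all genes called is not given here. Tjp1 was lower in HOXB4 cells by a difference of -2.87 (adjusted p = 0.000898), beside -2.17 between 6 and 12 weeks. Ighm was higher by 3.42 (adjusted p = 0.000898), beside 2.47, and Ets1 by 2.07 (adjusted p = 0.00407), beside 1.69. At 20 weeks, however, the Ighm mean was 8.62 in GFP cells and 8.09 in HOXB4 cells. Hdc gave -1.46 (adjusted p = 0.00294), beside -1.11, and Hyou1 -0.82 (adjusted p = 0.00294), beside -0.71. Other genes called over time did not pass between the vectors at 12 weeks. S100a4 differed between vectors by 0.02 (adjusted p = 0.983), Phospho2 by 0.00458 (adjusted p = 0.997), H3c14 by 0.14 (adjusted p = 0.884) and Hbb-b2 by -0.05 (adjusted p = 0.966).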

How the data were processed

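The members and gene lists were chosen with earlier results of these data known. Per the labels' protocols, total RNA of sorted, uncultured cells (20 ng an array) was amplified with NuGEN reagents, labelled with biotin and hybridised, 1 array a sample. The values are the authors' deposited log2 signals, 45141 probe sets on 15 arrays, for which the submitters' processing notes name Partek 6.5 and RMA. The sources used here give no filter. The platform annotation gave 1 symbol to 28898 probe sets, several to 551 (not named) and did not list 15692. Symbols were updated through the gene identifier for 28689, and 209 kept theirs. The 17097 genes were each represented by their brightest probe set on average (7180 genes had more than 1). One linear model with a mean for each of 5 groups was fitted (limma 3.58.1 under R 4.3.3, lmFit then eBayes; 10 residual and 4.55 prior degrees of freedom), two-sided, with Benjamini-Hochberg adjustment over all genes. Calls required an adjusted p below 0.05. An exact two-sided permutation test of 3 against 3 arrays cannot go below 0.1, so the calls rest on the model. The scripts were tested on simulated data.

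Named genes are the top 15 called genes in each direction by size of difference (predicted genes, Riken clones, olfactory and vomeronasal receptors and small RNAs left out of the ranking only), 8 genes always reported, up to 6 members of each list with the smallest p, and defining markers of cell types. Lists are described by counts and medians with no set test. Alternatives were the fit on 6 arrays, a filter on the dimmest genes, other choices of probe set, further normalisation, other moderation, array weights, the Gapdh covariate, the replicate block and leaving out each array. The actin covariate, and the Gapdh covariate without replicate 1 at 6 weeks, were added after seeing the data. Promoters were matched by symbol in the RefSeq table on GRCm38.p6.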

Additional observations from a re-analysis of the deposited data

How the results depend on the processing

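With all 15 arrays 268 genes were called, 214 higher and 54 lower. A fit on only the 6 arrays called 20 (18 and 2), 11 of them among the 268. One without moderation called 22 (13 and 9), 19 of them among the 268. In each of these fits 35 of the named genes lost their call. Testing all named probe sets called 551 (408 and 143). Quantile normalisation gave 91 higher and 90 lower, and median centring 120 higher. The Gapdh covariate called 1 (0 and 1). The actin covariate called 170 (134 higher), and the Gapdh covariate without replicate 1 at 6 weeks called 0 (0 and 0), with 1639 genes at an unadjusted p under 0.05. Leaving out 1 array at a time gave 0 to 923 called, 0 to 770 higher and 0 to 153 lower. The lowest came without replicate 2 or 3 at 12 weeks and the highest without replicate 2 at 6 weeks, and without replicate 1 at 12 weeks 51 were called. Fewer arrays leave fewer degrees of freedom; the cause of the other shifts was not tested. The replicate number as a block called 170 (132 higher), of which 157 were among the 268. Same-numbered arrays of both times deviated from their group means with correlations of -0.0753, -0.13 and -0.132, so the numbers were not taken to pair the arrays. Ctu2 turned to 0.35 (adjusted p = 0.398) with its probe set free of a cross-hybridisation suffix. The remaining alternatives (the filter on dim genes, the mean of probe sets, probe sets without a suffix, the variance trend and array weights) gave 227 to 340 calls.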

Other observations

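Histone genes were looked at after H3c14 had appeared among the largest rises, so their choice followed the values and no test is given. Of 20 replication-type and linker histone genes measured, 8 rose between 6 and 12 weeks in HOXB4 cells and 0 fell. A positive difference was seen in 16, and the median was 0.675 on the log2 scale. Over all genes 1.25% rose, 0.316% fell, 8822 of 17097 had a positive difference and the median was 0.00963. H1f4, a linker histone, read 10.53, 11.64 and 11.16 at 6 weeks and 12.14, 12.05 and 12.17 at 12 weeks (1.01, adjusted p = 0.0374). H3c1 read 12.05, 12.61 and 12.75 and then 13.15, 13.33 and 13.24 (0.77, adjusted p = 0.0236). Replicate 1, the array with the high Gapdh 3' minus 5' signal, was the lowest 6-week array in both. The median of the 20 was 0.572 without that array, where 2 were called (H3c1 and H3c14), and 0.3 with the Gapdh covariate. The suffix of the tested H3c1 and H3c14 probe sets marks possible cross-hybridisation, so these 2 signals may not be separate. Canonical histone transcripts mostly lack a poly(A) tail. The part of RNA length in these values was not tested beyond these refits.

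Adjusted p-values of histone genes come from limma over all genes. H3c15 and H4c11 were called at low signals (3.06 to 3.69 and 3.65 to 3.93 at 6 weeks).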
